A study of Mus musculus with 39 samples.

Results

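The average effect of an oral antibiotic on RNA levels in the mouse duodenum was measured over a pair of brain injections, in the 24 libraries whose columns carry the prefix MT (set MT) of the 39 libraries in the series. The 12 antibiotic libraries were 6 Leptin-antibiotic and 6 Saline-antibiotic libraries, and the 12 water libraries were 6 Leptin-water (replicates 8 to 13) and 6 Saline-water libraries (replicates 9 to 14). All mice were male C57BL/6 of genotype WT, 8 weeks old and fed standard chow, and all carried a cannula in the right lateral ventricle of the brain. One day after surgery the antibiotic mice received ampicillin (1 g/L) and neomycin (0.5 g/L) in the drinking water for 48 h, and the water mice drank water. Every mouse then received leptin (3 µg) or saline through the cannula, 3 days after surgery and after 2 h without food, and was killed 2 h later. Whole duodenum was used, so each library mixes epithelium, immune cells, muscle and any tissue attached to it. The labels number the samples within groups and do not give litters, cages or preparation days. The 15 water libraries of the other column prefix, M, were left out of the fits, and no antibiotic library carries that prefix.

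Ampicillin inhibits synthesis of the bacterial cell wall and neomycin, which is poorly absorbed from the gut, inhibits the bacterial ribosome. Leptin is a hormone of fat cells that acts on the hypothalamus. The duodenal epithelium is known to answer to bacteria and their products by making antimicrobial lectins of the Reg3 family, to take up fat, sugar, amino acids, calcium and iron through dedicated carriers, and to break down drugs and plant compounds through cytochrome P450 enzymes, carboxylesterases and glutathione transferases. Interferon-stimulated genes encode antiviral proteins whose basal level in the gut is known to depend on the microbiota in mice.

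The labelled tissue was checked with 11 markers of enterocytes or of the duodenum, all of them present. Of the enterocyte markers, Alpi had 2690 to 5540 and Sis 2030 to 5520 counts scaled to library size (CPM). Of the duodenal markers, Pdx1 had 101 to 198, Gata4 206 to 315, Cybrd1 107 to 431 and Slc40a1 625 to 1160 CPM. Total counts ran between 30207536 and 67870777 in antibiotic libraries and between 35411734 and 54521236 in water libraries. The share of counts on the ribosomal RNA gene Rn45s was 6.08 to 13.3% in antibiotic and 2.87 to 11.2% in water libraries. Exocrine pancreas genes were high in 5 libraries (mean of the list at least 4 log2 CPM): Leptin-antibiotic 3 and Saline-antibiotic 1, 2 and 5 among the antibiotic libraries, and Leptin-water 10 among the water libraries. The sum of the 25 pancreas list members was 783 to 3200 CPM in antibiotic and 791 to 2530 CPM in water libraries, and 12 of them had no count in 1 or more libraries (Prss2, Cela2a, Cela3a, Cela3b, Cpa1, Pnlip, Amy2a5, Amy2b, Pla2g1b, Try4, Try5 and Try10). The sum of 14 smooth muscle genes was 1680 to 2870 CPM in antibiotic and 1080 to 2680 CPM in water libraries, none of them at 0. All 25 pancreas list members had a positive log2 fold change, with a median of 2, against −0.182 with those 5 libraries left out. A single pancreas gene passed, but 21 passed when Leptin-water 10 alone was left out. The part of attached tissue in the results was not tested beyond the fits that leave out those 5 libraries or add pancreas and smooth muscle means as terms.

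The antibiotic was associated with many small shifts and a few large ones. With leptin as an additive term, edgeR's quasi-likelihood test with Benjamini-Hochberg adjustment over 16340 genes called 1016 genes (6.22%), of which 662 were higher (4.05%) and 354 lower (2.17%) on antibiotic. At an unadjusted p under 0.05 there were 3677 genes. Only 39 called genes changed by at least 1 on the log2 scale, 24 of them higher and 15 lower, while 820 called genes (80.7%) changed by less than 0.5. The median level, not scaled by transcript length, was 5.72 log2 CPM for the higher genes, 3.37 for the lower genes and 3.82 for all genes tested. The median log2 fold change over all genes was −0.000879.

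The split into higher and lower calls depended on how libraries were scaled. With upper quartile factors, which moved the median of all genes by −0.0419, 415 genes were higher and 714 lower, so the higher share of the calls was 36.8%. The higher share was 55.4% with no filter on low counts (550 higher, 443 lower), 53.6% with only genes of at least 1 CPM in at least 12 libraries (549 and 476) and 55.2% with Rn45s left out (541 and 439). With the 5 pancreas-high libraries left out 1102 genes were higher and 423 lower. Leaving out 1 library moved the higher count to 350 without Leptin-water 9, 395 without Leptin-water 8, 430 without Saline-water 12, 437 without Saline-antibiotic 4 and 440 without Leptin-water 11, and the lower count to 221 without Leptin-water 11 and 227 without Leptin-antibiotic 2.

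**Figure D1:**
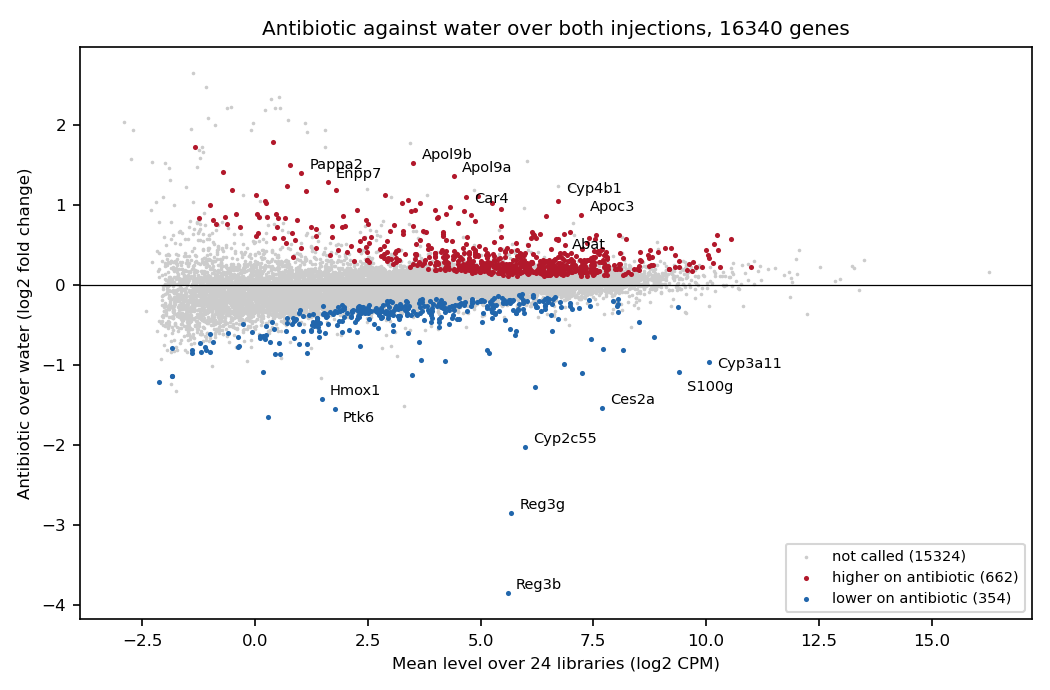
Log2 fold change of antibiotic over water (y axis) against the mean log2 CPM over 24 libraries (x axis) for 16340 genes, with 662 genes called higher in red, 354 called lower in blue and the others in grey. The lower genes with the largest changes include Reg3b, Reg3g, Cyp2c55 and Ces2a, while most called genes lie within 0.5 of 0.

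In 4 genes no antibiotic library overlapped the water libraries. Hmox1 was below all water libraries in every antibiotic library (1 gene, 0.00612% of those tested), and Abat, Car4 and the predicted gene Gm3219, named after its values were seen, were above them in every antibiotic library (3 genes, 0.0184%).

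Several enzymes that handle drugs and other foreign compounds fell by large amounts, while others of their lists rose. For these and all later lists, the shares over all genes tested were 4.05% called higher and 2.17% called lower. Of 20 cytochrome P450 genes of drug metabolism, 6 were lower and 4 higher (2 higher without Leptin-water 8 or Leptin-water 9), and of 36 phase II enzymes and carboxylesterases, 6 were lower and 3 higher. The P450 list had 5 lower and 6 higher with the 5 pancreas-high libraries left out, and 5 lower and 7 higher with pancreas and smooth muscle terms. The phase II list had 4 lower and 6 higher with those libraries left out, and 4 lower and 9 higher with those terms. The balance of each list thus turned with these settings. Their list medians were 0.0802 and 0.103, in the order given.

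Cyp2c55, a P450 that oxidizes arachidonic acid (chromosome 19, 39007019 to 39042693, plus strand), ranged from 15.0 to 49.6 CPM (median 34.2) in antibiotic libraries, against 34.3 to 209 CPM (median 139) in water libraries (log2 −2.02, SE 0.23, adjusted p = 1.11e-05). All 12 antibiotic libraries lay below the water median, and 6 lay below every water library. Ces2a, an intestinal carboxylesterase that cleaves ester drugs and lipids (chromosome 8, 104734003 to 104741634, plus strand), ranged from 67.2 to 164 CPM (median 122) in antibiotic libraries, against 131 to 571 CPM (median 347) in water libraries (log2 −1.53, SE 0.17, adjusted p = 1.05e-05). Its antibiotic libraries were again all below the water median, with 7 below every water library. Its neighbour Ces2b ranged from 36.8 to 112 CPM (median 90.7) in antibiotic libraries, against 36.1 to 271 CPM (median 168) in water libraries (log2 −0.98, SE 0.21, adjusted p = 0.00575), and every water library except Saline-water 9 lay above all antibiotic libraries. Ces2g of the same gene cluster went the other way, with medians of 256 CPM in antibiotic and 199 CPM in water libraries (log2 0.41, SE 0.10, adjusted p = 0.0186), as did Ces1e (0.45, adjusted p = 0.0021).

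The Cyp3a genes, which carry out much of the oxidation of drugs and steroids in gut and liver, fell as a family. Of 7 Cyp3a genes tested, 6 were lower and none higher. This family was chosen after its values were seen, and its members are close copies whose reads the authors' counting could have split. Cyp3a11 (chromosome 5, 145854426 to 145879964, minus strand) ranged from 339 to 1064 CPM (median 791) in antibiotic libraries, against 632 to 2284 CPM (median 1626) in water libraries (log2 −0.96, SE 0.17, adjusted p = 0.00114). Cyp3a16 (−1.12, adjusted p = 0.00175), Cyp3a44 (−0.95, adjusted p = 0.000814) and Cyp3a25 (−0.80, adjusted p = 0.000938) fell by similar amounts. Cyp2c66 also fell (−0.67, adjusted p = 0.00452), while Cyp2c38 of the same family rose, with medians of 5.99 CPM in antibiotic and 2.28 CPM in water libraries (log2 1.19, SE 0.23, adjusted p = 0.00251). Cyp4b1, which oxidizes fatty acids and some toxins, rose in nearly every library, ranging from 78.5 to 234 CPM (median 148) in antibiotic libraries, against 52.1 to 110.2 CPM (median 68.1) in water libraries (log2 1.05, SE 0.11, adjusted p = 1.05e-05). In 11 of 12 antibiotic libraries it was above all water libraries. Cyp2b10, the classical target of the nuclear receptor CAR in liver, had 195 to 468 CPM (median 329) in antibiotic libraries, against 180.2 to 570.3 CPM (median 372) in water libraries and did not pass (log2 −0.24, SE 0.15, adjusted p = 0.354).

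The promoter of Cyp3a11 is shown because genes of this family are known targets of the nuclear receptors PXR and CAR, which bind paired half-sites. The RefSeq promoter window (build GRCm38.p6, 250 bases before to 50 after the start) was searched on both strands for a direct repeat, AGNTCA and AGNTCA with any 4 bases between, and for an everted repeat, TGAACT and AGNTCA with any 6 bases between. Here and below, a gene with several windows counted if any of them matched, and the first matching window is the one printed. The direct repeat was found in 1 of 7 Cyp3a genes with a window, Cyp3a11, and in 12 of the 12671 tested genes with a window (0.0947%). The everted repeat was found in none of the 7, and in 1 gene of all those with a window (0.00789%). Cyp3a11 is printed 5′ to 3′ along the gene (chr5:145879986-145880051, minus strand), with the direct repeat in capitals:
Cyp3a11: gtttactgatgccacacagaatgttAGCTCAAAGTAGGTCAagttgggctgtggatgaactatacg

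Of 7 glutathione transferases of the mu class 3 fell, and the median of the class, read after its values were seen, was −0.0135. Gstm1, which joins glutathione to reactive compounds (chromosome 3, 108012255 to 108017973, minus strand), ranged from 91.4 to 139 CPM (median 103) in antibiotic libraries, against 83.6 to 382 CPM (median 236) in water libraries (log2 −1.09, SE 0.19, adjusted p = 0.00132). The antibiotic libraries clustered tightly while the water libraries spread widely, and Saline-water 9, 11 and 12 lay below the highest antibiotic library. Gstm3 had medians of 226 CPM in antibiotic and 377 CPM in water libraries (log2 −0.81, SE 0.18, adjusted p = 0.00706). Of 31 PPAR-alpha targets and fatty acid oxidation genes, 3 were lower (5 without Saline-water 9) and 1 higher, and the list median was −0.0119.

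**Figure D2:**
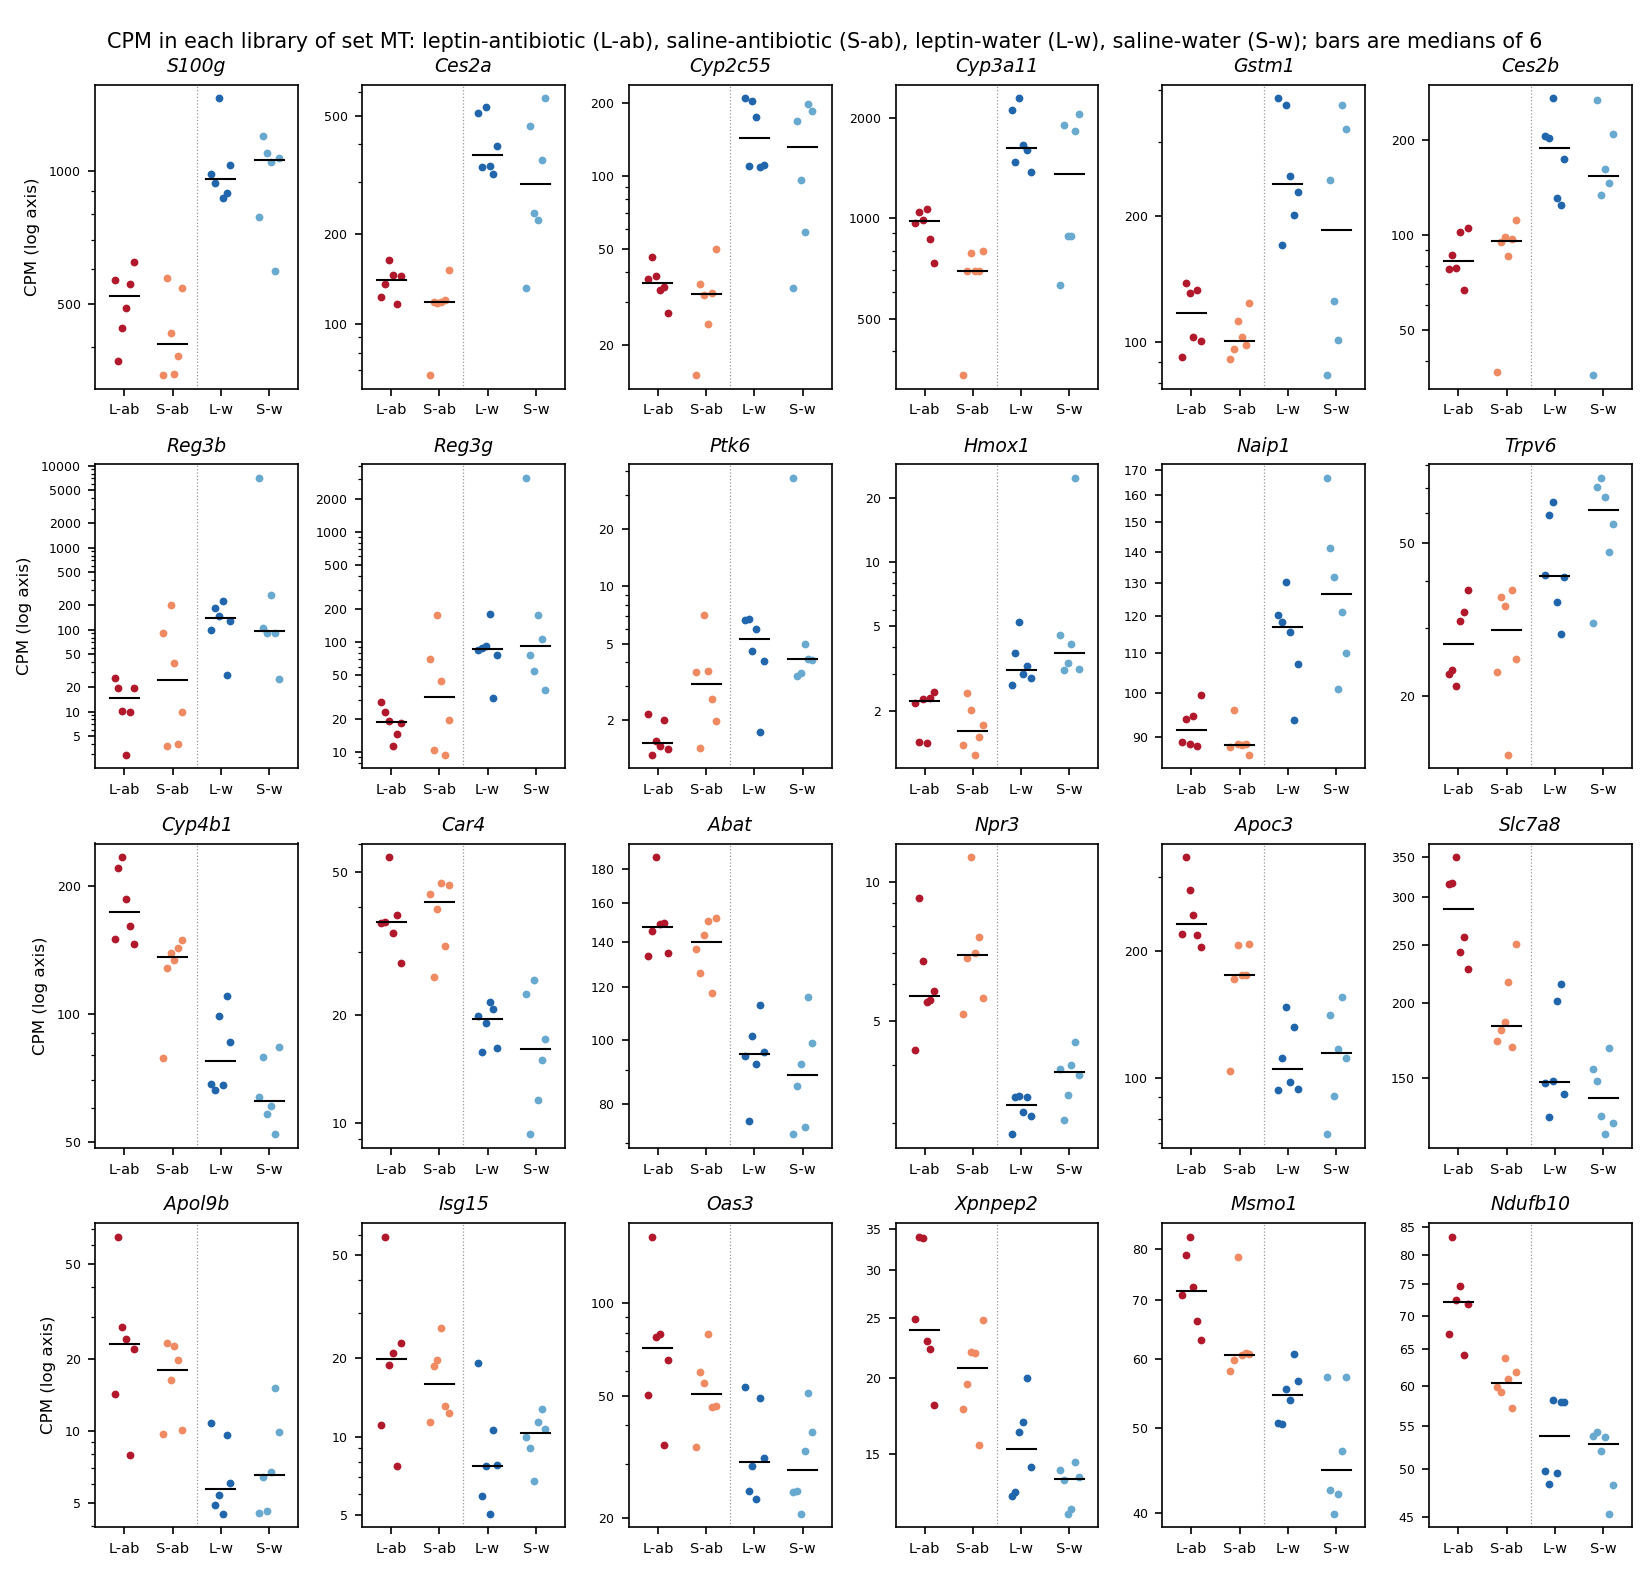
CPM on a log axis (y) of 24 genes in each library of set MT, by group (x), with leptin-antibiotic and saline-antibiotic left of leptin-water and saline-water; points are libraries and bars are medians of 6. In the upper rows the antibiotic points lie low, as for S100g, and in the lower rows they lie high, as for Cyp4b1, where 11 of 12 are above every water library.

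Duodenal calcium uptake runs through the apical channel Trpv6 and the cytosolic carrier calbindin-D9k, encoded by S100g, both known targets of the vitamin D receptor. Both fell. S100g (chromosome X, 162961992 to 162964599, minus strand) ranged from 345 to 622 CPM (median 466) in antibiotic libraries, against 595 to 1464 CPM (median 1010.4) in water libraries. Nearly all of the antibiotic libraries were low (log2 −1.09, SE 0.12, adjusted p = 1.05e-05), and 11 of 12 antibiotic libraries lay below every water library. Trpv6 (chromosome 6, 41620624 to 41636405, minus strand) ranged from 14.0 to 37.9 CPM (median 28.1) in antibiotic libraries, against 29.1 to 74.2 CPM (median 51.8) in water libraries (log2 −0.84, SE 0.16, adjusted p = 0.00277), with 6 antibiotic libraries below all water libraries. Slc30a10, a manganese exporter, also fell (log2 −0.46, SE 0.09, adjusted p = 0.00307). Of 12 genes of calcium uptake and vitamin D, these 3 were lower (5 with pancreas and smooth muscle terms) and none higher, and the list median was −0.133. Vdr, the receptor itself, had 631 to 925 CPM (median 799.6) in antibiotic libraries, against 528 to 926 CPM (median 799) in water libraries and did not pass (log2 0.02, SE 0.08, adjusted p = 0.909). Its sign turned with upper quartile factors.

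Of 20 genes of iron and heme handling, 2 were lower and 1 higher. The lower count was 1 in 14 of 24 fits that left out 1 library, and the higher count was 0 in 10 of them, 2 without Saline-antibiotic 1 and 3 without Saline-water 13. There were 4 higher and 0 lower both with the 5 pancreas-high libraries left out and with pancreas and smooth muscle terms, so the direction of the calls depended on these settings. Hmox1, the enzyme that breaks down heme (chromosome 8, 75093621 to 75100589, plus strand), had 1.25 to 2.45 CPM (median 1.87) in antibiotic libraries, against 2.66 to 25.0 CPM (median 3.30) in water libraries, with no overlap between the arms (log2 −1.42, SE 0.32, adjusted p = 0.00797). Saline-water 13 stood far above the others at 25.0 CPM, and without it the log2 fold change was −0.92, adjusted p = 0.000256. With the 5 pancreas-high libraries left out it was −1.27, with an adjusted p of 0.0542. Mt2, a metallothionein that binds zinc and copper, rose (log2 0.89, SE 0.22, adjusted p = 0.0157), but not without those libraries (0.76, adjusted p = 0.07).

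A pair of antimicrobial lectins fell, by an amount that rests largely on 1 water library. Reg3b and Reg3g encode secreted C-type lectins of the epithelium, Reg3g being known to kill Gram-positive bacteria. Reg3b (chromosome 6, 78370657 to 78373466, plus strand) ranged from 2.98 to 197 CPM (median 14.7) in antibiotic libraries, against 24.8 to 7107 CPM (median 116) in water libraries (log2 −3.85, SE 0.83, adjusted p = 0.0066). Reg3g (chromosome 6, 78466269 to 78468872, minus strand) ranged from 9.56 to 176 CPM (median 19.4) in antibiotic libraries, against 30.9 to 3097 CPM (median 87.2) in water libraries (log2 −2.85, SE 0.65, adjusted p = 0.00917). In Reg3b 8 and in Reg3g 9 of the 12 antibiotic libraries lay below all water libraries. Saline-water 9 alone reached 7107 CPM of Reg3b and 3097 CPM of Reg3g, while the other 11 water libraries had at most 264.9 and 179.6 CPM. Without it the log2 fold changes were −2.18, adjusted p = 0.0321 for Reg3b and −1.55, adjusted p = 0.0301 for Reg3g. The other 5 of 7 Reg family genes did not pass, and the list median was −0.31.

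The promoter of Reg3b is shown because Reg3 genes are known targets of STAT3. A STAT element, TTCNNNGAA on either strand, was found for Reg3b and not for Reg3g, and in 1061 of 12671 tested genes with a window (8.37%). The RefSeq start of the printed Reg3b window lies downstream of the GENCODE start given above, so the stretch lies inside the GENCODE gene. It (chr6:78370731-78370789, plus strand) carries the element, which is its own reverse complement in these letters, in capitals:
Reg3b: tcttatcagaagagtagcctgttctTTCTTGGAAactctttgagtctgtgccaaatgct

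Ptk6, an epithelial tyrosine kinase, ranged from 1.31 to 7.03 CPM (median 1.98) in antibiotic libraries, against 1.72 to 36.9 CPM (median 4.36) in water libraries (log2 −1.55, SE 0.36, adjusted p = 0.0109). It too was highest in Saline-water 9, at 36.9 CPM, and without that library the log2 fold change was −0.97, adjusted p = 0.0223. With the 5 pancreas-high libraries left out the adjusted p was 0.0546. Duox2, the epithelial oxidase that makes hydrogen peroxide, had 1.52 to 17.9 CPM (median 7.86) in antibiotic libraries, against 5.43 to 62.0 CPM (median 10.9) in water libraries and did not pass (log2 −0.89, SE 0.33, adjusted p = 0.105). Of the 15 oxidase and alarm genes it belongs to, none passed (1 without Saline-antibiotic 3 or Saline-water 13), and 13 had a negative log2 fold change (median −0.227). None of 18 Paneth cell antimicrobials passed (median 0.0371), but 2 were lower without Saline-antibiotic 1 and 1 with the 5 pancreas-high libraries left out (median −0.16). Their median was −0.212 in the leptin and 0.205 in the saline libraries.

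Sensors of microbes were mostly lower where they passed. Of 36 genes of pattern recognition and the inflammasome, 5 were lower and none higher, with a list median of −0.133. The lower count was 3 without Leptin-antibiotic 2, Leptin-antibiotic 6, Saline-antibiotic 2 or Leptin-water 11 in turn, and 8 without Saline-water 11. The higher count was 1 without Leptin-antibiotic 3. There were 1 higher and 4 lower with the 5 pancreas-high libraries left out, and 3 higher and 5 lower with pancreas and smooth muscle terms. Naip1, a cytosolic receptor for the bacterial type III secretion needle, had 86.4 to 99.6 CPM (median 88.6) in antibiotic libraries, against 93.7 to 167 CPM (median 119) in water libraries (log2 −0.42, SE 0.07, adjusted p = 0.00045). All antibiotic libraries fell in a narrow band below the water median, 8 of them below every water library. Tlr1, a partner of Tlr2 in sensing lipoproteins, had medians of 4.95 CPM in antibiotic and 6.90 CPM in water libraries (log2 −0.48, SE 0.10, adjusted p = 0.00516). Tlr7, the sensor of single-stranded RNA, had medians of 2.83 CPM in antibiotic and 4.24 CPM in water libraries (log2 −0.50, SE 0.11, adjusted p = 0.00912). Ikbkg, the regulatory subunit of the kinase that activates NF-kappa-B, was not on the list and fell as well, at 42.8 to 52.3 CPM (median 47.2) in antibiotic libraries, against 49.3 to 67.2 CPM (median 59.8) in water libraries (log2 −0.31, SE 0.05, adjusted p = 0.000528).

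Interferon-stimulated genes were mostly higher where they passed. Of 43 such genes, 13 were higher and none lower, 37 had a positive log2 fold change, and the median was 0.355, against −0.000879 over all genes. Fitted alone, the leptin libraries gave a list median of 0.454 and the saline libraries 0.205. The higher count was 7 without Leptin-water 9 and 8 without Saline-antibiotic 4, and 15 with the 5 pancreas-high libraries left out. There was 1 lower gene without Leptin-antibiotic 3, without Saline-water 9 and with upper quartile factors. Their mean level was 3.68 to 5.56 log2 CPM in antibiotic libraries (median 4.46), against 3.65 to 4.64 log2 CPM in water libraries (median 3.96). The arms overlapped broadly, and Leptin-antibiotic 2 was the highest library.

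Promoter stretches of 6 of these genes are shown because they share the interferon-stimulated response element, searched as GAAA and GAAA with any 2 bases between, on both strands of the RefSeq windows (GRCm38.p6). The element was found in 22 of the 31 list members with a window (71%) and in 484 of the 12671 tested genes with one (3.82%). Among the called members it was found in 10 of 10 with a window, and among those not called in 12 of 21 (57.1%). Matches are descriptions of letters and were not tested as binding sites. The stretches are printed 5′ to 3′ along each gene, with every matching base in capitals. Isg15 (chr4:156200850-156200921, minus strand) holds 3 overlapping matches, and Apol9b (chr15:77729010-77729071, plus strand), Apol9a (chr15:77411099-77411164, minus strand), Oas1a (chr5:120907526-120907570, minus strand), Oas1g (chr5:120887614-120887656, minus strand) and Ifit1 (chr19:34640760-34640838, plus strand) hold 2 each.
Isg15: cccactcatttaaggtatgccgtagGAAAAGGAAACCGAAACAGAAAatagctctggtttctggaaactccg
Apol9b: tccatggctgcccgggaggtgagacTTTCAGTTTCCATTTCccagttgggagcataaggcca
Apol9a: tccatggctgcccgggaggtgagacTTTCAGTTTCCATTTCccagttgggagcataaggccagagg
Oas1a: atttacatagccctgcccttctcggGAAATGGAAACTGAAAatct
Oas1g: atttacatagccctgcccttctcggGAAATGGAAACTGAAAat
Ifit1: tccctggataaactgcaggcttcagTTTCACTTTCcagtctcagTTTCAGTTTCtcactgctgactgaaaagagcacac
The Apol9a and Apol9b stretches run past the GENCODE start into the gene. The letters of Apol9a and Apol9b, and those of Oas1a and Oas1g, are the same over their shared length, and reads of such near-copies could have been split between them by the counting.

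Apol9b, an apolipoprotein L family member induced by interferon, had 7.91 to 64.8 CPM (median 20.9) in antibiotic libraries, against 4.52 to 15.1 CPM (median 6.23) in water libraries (log2 1.53, SE 0.28, adjusted p = 0.00192), and 8 antibiotic libraries lay above all water libraries. Apol9a had 13.5 to 104 CPM (median 34.4) in antibiotic libraries, against 7.93 to 24.3 CPM (median 14.5) in water libraries (log2 1.36, SE 0.25, adjusted p = 0.00194). Isg15, a ubiquitin-like protein that is attached to other proteins during antiviral responses, had 7.69 to 58.8 CPM (median 18.8) in antibiotic libraries, against 5.05 to 19.2 CPM (median 9.51) in water libraries (log2 1.03, SE 0.26, adjusted p = 0.0186). These levels were spread over several fold within the antibiotic arm, and the highest value of each came from Leptin-antibiotic 2. Oas3 (0.95, adjusted p = 0.00743), Oas1g (0.84, adjusted p = 0.0153) and Oas1a (0.77, adjusted p = 0.0155), enzymes that activate RNase L when they meet double-stranded RNA, rose too. Ifit1, which binds foreign RNA, had 20.8 to 210.4 CPM (median 54.1) in antibiotic libraries, against 16.2 to 63.3 CPM (median 25.1) in water libraries (log2 1.02, SE 0.30, adjusted p = 0.0375), and its call was lost in 12 of 24 fits that left out 1 library.

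Few genes of immune cells passed. Over the macrophage, B cell, T cell and MHC class II lists, 5 of 60 genes were called (8.33%), all lower. Over all genes 6.22% were called in either direction and 2.17% were called lower. The share called was thus near that of calls in either direction, and above that of lower calls. In bulk tissue, fewer cells of a type and less RNA per cell cannot be told apart. Of 19 macrophage and dendritic cell genes, 18 had a negative log2 fold change and 3 passed, all lower, with a median of −0.205. The count was 1 without Leptin-antibiotic 2 and 1 without Saline-antibiotic 2. With the 5 pancreas-high libraries left out it was 3, and the list median was −0.108. Cd209a, a lectin of dendritic cells, had 0.832 to 3.34 CPM (median 1.57) in antibiotic libraries, against 2.03 to 4.29 CPM (median 2.83) in water libraries (log2 −0.84, SE 0.18, adjusted p = 0.00651). Adgre1, the macrophage antigen F4/80, had medians of 8.10 CPM in antibiotic and 11.0 CPM in water libraries (log2 −0.39, SE 0.11, adjusted p = 0.0294), and Lyz2 had medians of 46.4 CPM in antibiotic and 61.4 CPM in water libraries (log2 −0.35, SE 0.10, adjusted p = 0.0321). The call of Adgre1 was lost in 2 and that of Lyz2 in 5 of 24 fits that left out 1 library.

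Of 9 plasma and B cell genes, only Ms4a1, the B cell antigen CD20, passed, at 0.0239 to 0.518 CPM (median 0.148) in antibiotic libraries, against 0.207 to 0.629 CPM (median 0.354) in water libraries (log2 −1.14, SE 0.29, adjusted p = 0.0206). All 20 genes of T cells and intraepithelial lymphocytes had a negative log2 fold change (median −0.241), and none passed (1 without Leptin-antibiotic 1 or Saline-antibiotic 3). With the 5 pancreas-high libraries left out the median of these 20 genes was closer to that of all genes, at −0.0949. Their summed level was 111 to 288 CPM in antibiotic and 174 to 329 CPM in water libraries. Of 12 genes of MHC class II presentation, 10 had a negative log2 fold change and Ciita, the transcriptional master regulator of the class, was the 1 that passed. Ciita had 12.6 to 25.6 CPM (median 15.9) in antibiotic libraries, against 17.2 to 45.9 CPM (median 20.9) in water libraries (log2 −0.49, SE 0.13, adjusted p = 0.0219), and with the 5 pancreas-high libraries left out it did not pass (adjusted p = 0.0908). H2-Aa, a class II chain, had 58.5 to 148 CPM (median 83.6) in antibiotic libraries, against 80.3 to 280.5 CPM (median 108) in water libraries and did not pass (log2 −0.35, SE 0.18, adjusted p = 0.259).

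Most genes of digestion and uptake did not pass, and those that did were mostly higher. Of 12 brush border peptidases, 6 were higher and none lower, all 12 had a positive log2 fold change and the median was 0.366. Fitted alone, the leptin libraries gave a list median of 0.498 and the saline libraries 0.185. For this and other lists, such differences in medians were not tested. The mean of the list was 7.72 to 8.72 log2 CPM in antibiotic libraries (median 8.34), against 7.64 to 8.28 log2 CPM in water libraries (median 7.93). Anpep, aminopeptidase N, had 1209 to 2814 CPM (median 1802) in antibiotic libraries, against 867 to 1999.6 CPM (median 1299) in water libraries (log2 0.57, SE 0.15, adjusted p = 0.0208). Xpnpep2, an aminopeptidase that removes residues before proline, had 15.5 to 33.9 CPM (median 22.2) in antibiotic libraries, against 12.0 to 19.96 CPM (median 13.9) in water libraries (log2 0.67, SE 0.10, adjusted p = 0.000275), and 8 antibiotic libraries lay above all water libraries. Naaladl1 (0.63, adjusted p = 0.000584) and Mme, the endopeptidase neprilysin (0.45, adjusted p = 0.0124), rose in the same list.

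Of 18 amino acid and peptide transporters, 5 were higher and none lower, with a median of 0.226 (0.31 in the leptin and 0.112 in the saline libraries). Slc7a8, an exchanger of neutral amino acids, had 169 to 349.8 CPM (median 236) in antibiotic libraries, against 121 to 215 CPM (median 148) in water libraries (log2 0.63, SE 0.10, adjusted p = 0.000346). Every antibiotic library was above the water median. Slc16a10, which carries aromatic amino acids (0.41, adjusted p = 0.0066), Slc43a2 (0.36, adjusted p = 0.00927) and Slc7a7, which exports cationic amino acids (0.30, adjusted p = 0.00682), moved less. With the 5 pancreas-high libraries left out 10 of the 18 were higher.

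Of 18 genes of sugar digestion and handling, 4 were higher, none lower, and 17 had a positive log2 fold change (median 0.248). Their median was 0.378 in the leptin and 0.111 in the saline libraries. Slc5a4a, a member of the sodium-glucose cotransporter family, had 29.2 to 71.2 CPM (median 47.0) in antibiotic libraries, against 6.21 to 45.0 CPM (median 21.7) in water libraries (log2 1.11, SE 0.19, adjusted p = 0.00117). Treh, which cleaves trehalose, had medians of 452 CPM in antibiotic and 311 CPM in water libraries (log2 0.42, SE 0.10, adjusted p = 0.00927), and the hexose transporter Slc2a7 of 66.7 CPM in antibiotic and 52.2 CPM in water libraries (log2 0.39, SE 0.08, adjusted p = 0.0053). Lct, lactase, had 603 to 2104 CPM (median 1416) in antibiotic libraries, against 428 to 1453 CPM (median 977) in water libraries (log2 0.52, SE 0.15, adjusted p = 0.0346), and its call was lost in 12 of 24 fits that left out 1 library. With the 5 pancreas-high libraries left out 10 of the 18 were higher.

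Of 29 genes of lipid absorption and chylomicrons, 6 were higher and 1 lower, with a median of 0.189. Fitted alone, the leptin libraries gave a list median of 0.238 and the saline libraries 0.03, with 27 and 15 of the 29 positive. The higher count was 3 without Saline-antibiotic 4, 3 without Leptin-water 9, 10 without Saline-antibiotic 1 and 15 with the 5 pancreas-high libraries left out. Apoc3, an apolipoprotein of triglyceride-rich particles, had 104 to 333 CPM (median 207) in antibiotic libraries, against 73.5 to 155 CPM (median 111) in water libraries (log2 0.87, SE 0.13, adjusted p = 0.000324), and 11 antibiotic libraries lay above all water libraries. Fabp2, the intestinal fatty acid-binding protein, had 1038 to 2419 CPM (median 1510.2) in antibiotic libraries, against 508 to 1541 CPM (median 967) in water libraries (log2 0.63, SE 0.15, adjusted p = 0.011). Dgat1, which makes triglyceride, rose less (0.26, adjusted p = 0.0167). Apoa4, a chylomicron apolipoprotein, had 2593 to 8193 CPM (median 5048) in antibiotic libraries, against 2540.1 to 5243 CPM (median 3702) in water libraries and did not pass (log2 0.44, SE 0.14, adjusted p = 0.0553), but passed with the 5 pancreas-high libraries left out (0.59, adjusted p = 0.00854). Abca1, which exports cholesterol from cells, was the 1 lower gene (log2 −0.44, SE 0.10, adjusted p = 0.00974).

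Of 16 genes of retinoid uptake and metabolism, 4 were higher and none lower: Rbp2, the cellular retinol-binding protein of enterocytes (0.45, adjusted p = 0.011), Bco1, which cleaves beta-carotene (0.65, adjusted p = 0.0108), and the dehydrogenases Rdh7 (0.60, adjusted p = 0.0118) and Adh1 (0.46, adjusted p = 0.0153). The median of the retinoid list was 0.148 in the leptin and 0.0342 in the saline libraries. Of 10 genes of bile acid handling, 3 were higher and 1 lower, and the list median was 0.249 and 0.0253, in that order. Enpp7, the alkaline sphingomyelinase that acts in the presence of bile salts, had 2.26 to 8.96 CPM (median 5.20) in antibiotic libraries, against 0.803 to 6.46 CPM (median 1.83) in water libraries (log2 1.29, SE 0.30, adjusted p = 0.011). Slc10a2, the bile acid importer best known from the ileum, had 0.945 to 3.21 CPM (median 2.08) in antibiotic libraries, against 0.631 to 2.32 CPM (median 1.08) in water libraries (log2 0.85, SE 0.16, adjusted p = 0.00194). Nr0b2, the bile acid-responsive repressor SHP, rose (0.56, adjusted p = 0.0163), while Nr1h4, the bile acid receptor FXR, fell (log2 −0.35, SE 0.08, adjusted p = 0.00653). The direction therefore differed within this list.

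**Figure D3:**
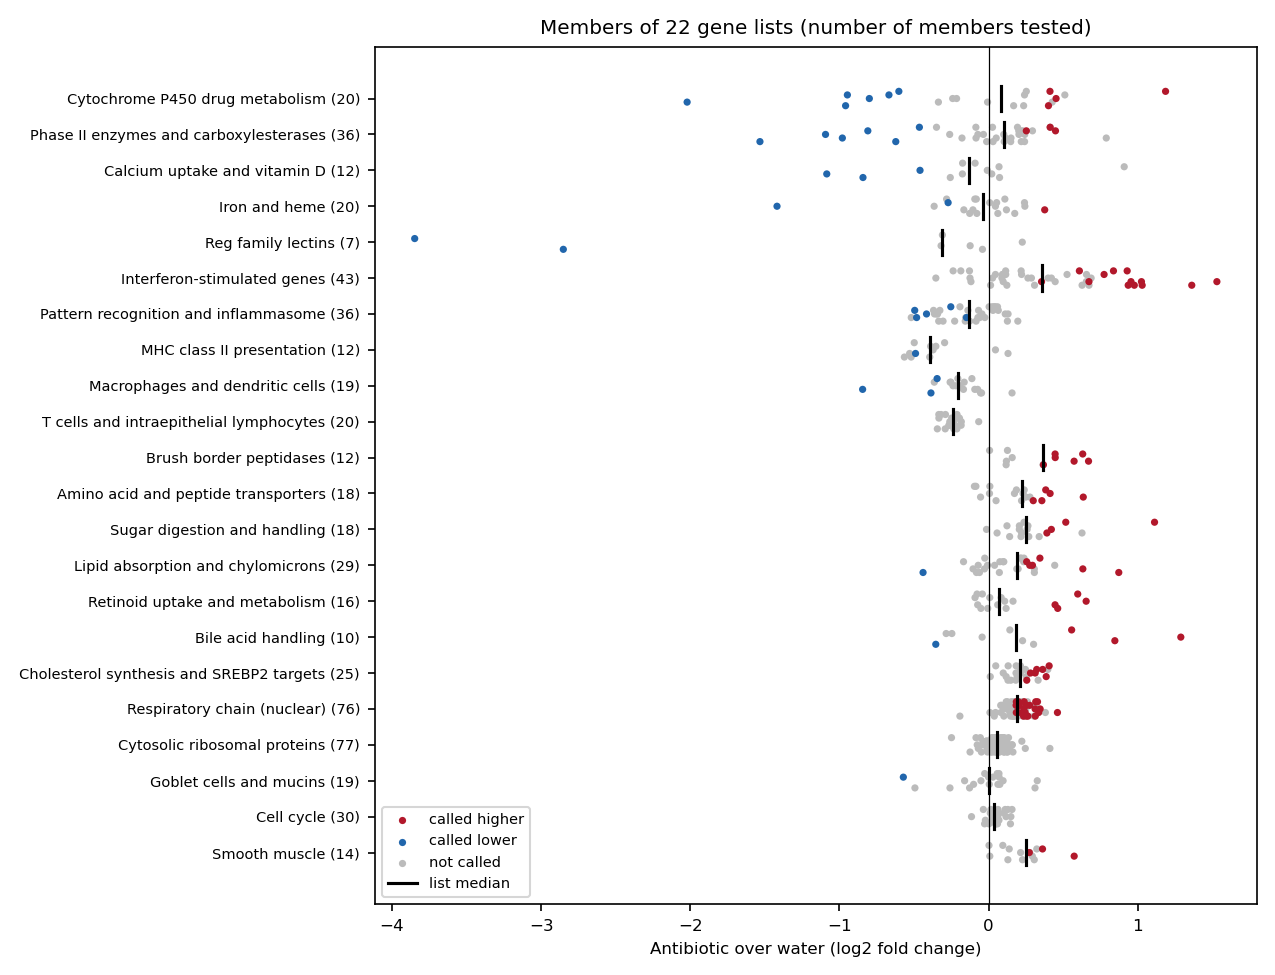
Log2 fold change of antibiotic over water (x axis) for each tested member of 22 gene lists (y axis); red points passed the test as higher, blue points as lower, grey points did not pass, and bars mark list medians. Brush border peptidases, respiratory chain and cholesterol synthesis genes lie right of 0 with medians of 0.366, 0.19 and 0.213, while P450 and phase II genes scatter to both sides.

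Metabolic genes of the mitochondrion and of sterol synthesis were higher where they passed, by small amounts. Of 76 nuclear genes of the respiratory chain, 75 had a positive log2 fold change, 23 were higher and none lower, and the median was 0.19. This count was 10 to 15 in 12 of the fits that left out 1 library, lowest without Leptin-water 8 or Leptin-water 9, then 11 without Leptin-antibiotic 2, Saline-antibiotic 4 or Leptin-water 11, 12 without Saline-antibiotic 6, 13 without Leptin-antibiotic 3 or Saline-water 12, 14 without Leptin-antibiotic 1, Leptin-water 13 or Saline-water 14 and 15 without Saline-antibiotic 3. It was 10 with upper quartile factors, 63 with pancreas and smooth muscle terms and 42 with the 5 pancreas-high libraries left out. Ndufb10, a subunit of complex I, had 57.2 to 83.2 CPM (median 64.0) in antibiotic libraries, against 45.3 to 58.2 CPM (median 52.8) in water libraries (log2 0.34, SE 0.05, adjusted p = 0.000239), and 11 antibiotic libraries lay above all water libraries. Ndufs1 (0.20, adjusted p = 0.0066), Ndufa5 (0.46, adjusted p = 0.00942) and the complex IV subunit Cox6a1 (0.31, adjusted p = 0.0101) rose as well. None of 77 cytosolic ribosomal protein genes passed, and 1 did without Leptin-antibiotic 3 or Leptin-water 13 (median 0.0564).

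All 25 genes of cholesterol synthesis and its regulator SREBP2 had a positive log2 fold change, and 7 were higher (median 0.213). Here the saline libraries gave the larger median, 0.3, and the leptin libraries 0.117. Msmo1, a sterol oxygenase of the pathway, had 58.0 to 82.7 CPM (median 64.7) in antibiotic libraries, against 39.9 to 60.7 CPM (median 52.2) in water libraries (log2 0.41, SE 0.06, adjusted p = 0.000488). Every antibiotic library was above the water median. Stard4, a sterol carrier (0.32, adjusted p = 0.000871), and the reductase Dhcr7 (0.36, adjusted p = 0.00671) rose as well. Of 17 genes of fatty acid synthesis, Fasn (0.31, adjusted p = 0.02) and Scd2 (0.50, adjusted p = 0.0254) were higher (1 gene without Saline-water 12 or Saline-water 14), and neither passed with the 5 pancreas-high libraries left out (0.144 and 0.199 as adjusted p).

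**Figure D4:**
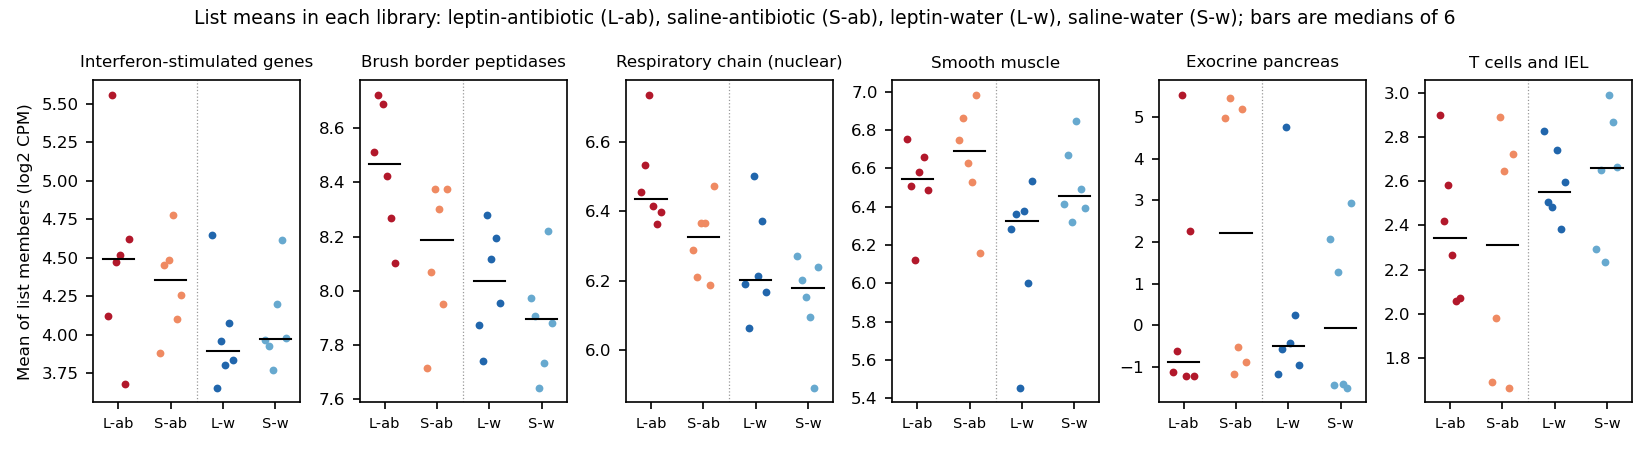
Mean log2 CPM over the members of 6 gene lists (y axis, a panel each) in every library, by group (x axis), with both antibiotic groups left of both water groups; bars are medians of 6. Brush border peptidases run from 7.72 to 8.72 on antibiotic against 7.64 to 8.28 on water, and the exocrine pancreas panel shows the 4 antibiotic libraries and 1 water library at or above 4.

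Several single genes had low p-values and little overlap between the arms. Abat, which breaks down the amino acid GABA (chromosome 16, 8513429 to 8621568, plus strand), had 118 to 188 CPM (median 145) in antibiotic libraries, against 72.2 to 116 CPM (median 93.4) in water libraries (log2 0.64, SE 0.07, adjusted p = 1.51e-05). Car4, a carbonic anhydrase on the outer face of the cell membrane (chromosome 11, 84957786 to 84966044, plus strand), had 25.6 to 55.0 CPM (median 37.1) in antibiotic libraries, against 9.30 to 24.9 CPM (median 18.04) in water libraries (log2 1.10, SE 0.14, adjusted p = 4.01e-05), and was the only higher gene of 22 genes of bicarbonate and ion transport, where 3 were higher without Leptin-water 10 and 5 with the 5 pancreas-high libraries left out. Glud1, the mitochondrial glutamate dehydrogenase, had 167 to 293 CPM (median 209) in antibiotic libraries, against 112 to 192 CPM (median 136) in water libraries (log2 0.59, SE 0.08, adjusted p = 7.3e-05). Npr3, the clearance receptor of natriuretic peptides, had 4.33 to 11.3 CPM (median 6.26) in antibiotic libraries, against 2.83 to 4.49 CPM (median 3.421) in water libraries (log2 0.94, SE 0.12, adjusted p = 3.54e-05). All 12 antibiotic libraries of these 4 genes were above the water median. Pappa2, a protease of insulin-like growth factor binding proteins, had 1.46 to 4.91 CPM (median 3.27) in antibiotic libraries, against 0.631 to 1.96 CPM (median 1.17) in water libraries (log2 1.40, SE 0.19, adjusted p = 0.000109).

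Other genes ranked by size or by p were Susd2 (1.07, adjusted p = 0.000512), Ccdc170 (1.18, adjusted p = 0.000101), the orphan receptor Gpr151 (1.12, adjusted p = 0.00138), Prr15 (0.65, adjusted p = 1.46e-05), the phospholipid scramblase Ano6 (0.58, adjusted p = 9.08e-05) and Larp1b (0.30, adjusted p = 7.3e-05) among the higher genes. The lower ones by p were Osbpl9 (−0.30, adjusted p = 0.00029), Fryl (−0.33, adjusted p = 0.000296), Shroom1 (−0.58, adjusted p = 0.00045) and the adhesion receptor Adgrf1 (−0.65, adjusted p = 0.000791). Osbpl9 and Fryl changed little in size, but 10 and 11 of 12 antibiotic libraries lay below all water libraries.

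Few genes marking epithelial cell types passed. None of 21 enteroendocrine, 12 tuft cell, 19 junction or 30 cell cycle genes passed, and the medians in that order were 0.00629, −0.119, −0.00127 and 0.0394. With 1 library left out in turn at most 1 enteroendocrine and 1 tuft cell gene passed, and no junction or cell cycle gene. Leaving out the 5 pancreas-high libraries gave 1 higher enteroendocrine and 1 higher junction gene. Of 19 goblet cell and mucin genes only the membrane mucin Muc4 passed (log2 −0.57, SE 0.13, adjusted p = 0.011), and of 18 stem cell and Wnt genes only Rnf43, a ubiquitin ligase that restrains Wnt receptors (log2 −0.37, SE 0.07, adjusted p = 0.0024). The stem cell and Wnt list had 2 lower without Leptin-antibiotic 1, Saline-antibiotic 1 or Saline-water 10, and 3 with the 5 pancreas-high libraries left out. Guca2b, the gut peptide uroguanylin, rose (log2 0.62, SE 0.15, adjusted p = 0.0114). None of 23 immediate early, 16 fibroblast and collagen or 22 unfolded protein and stress response genes passed either, and at most 1 of a list did so with 1 library left out. Of the smooth muscle genes 3 passed, all higher, with Actg2, the enteric smooth muscle actin, at log2 0.57, SE 0.11, adjusted p = 0.00208, and 1 passed with the 5 pancreas-high libraries left out. The count was 1 in 18 of 24 fits that left out 1 library and 5 without Saline-antibiotic 6, and with pancreas and smooth muscle terms 1 was higher and 2 lower. Pnliprp2, a lipase related to pancreatic lipase, was the 1 pancreas list gene that passed (log2 0.93, SE 0.16, adjusted p = 0.00117), and its change was as large without those libraries (0.94).

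The average was next split by injection, since the arms share no library. Fitted alone, the 12 leptin libraries gave 509 calls of 16279 genes (3.13%), with 392 higher (2.41%) and 117 lower (0.719%), and 3467 genes at an unadjusted p under 0.05. The 12 saline libraries alone gave 0 of 16282 by edgeR (1616 at an unadjusted p under 0.05), where DESeq2 called 89 higher and 67 lower and limma voom with quality weights 13 and 3. Read from a fit of all 4 groups, which shares the spread among 24 libraries and was added after the data were seen, the leptin arm gave 303 higher and 69 lower and the saline arm 19 higher and 13 lower. Of those 32 saline calls, 31 had the same sign in the leptin arm and 21 were called in both (65.6% of the saline and 5.65% of the leptin calls). All 1015 called genes of the average with a value in both arms had the same sign in each, but they were called on these same libraries. Across 16235 genes 61.1% had the same sign in both arms, and the correlation of the fold changes across genes, which are not independent replicates, was 0.389 by Pearson's and 0.348 by Spearman's measure.

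The lead genes, called on the average of these same libraries, had the same sign in each injection, as did all called genes with a value in both. The log2 fold change of S100g was −1.03 with leptin and −1.15 with saline, that of Ces2a −1.57 and −1.51, that of Cyp2c55 −2.09 and −1.96, and that of Car4 0.99 and 1.20. Others were further apart. It was 1.83 and 0.76 for Enpp7, 1.94 and 1.11 for Apol9b, −0.79 and −2.06 for Hmox1 and −2.06 and −0.46 for Ms4a1. No difference between injections passed by edgeR (0 of 16340 genes, 0%; lowest adjusted p = 0.772; 1043 genes at an unadjusted p under 0.05), and none by DESeq2 or limma voom (1094 and 1206 genes at an unadjusted p under 0.05). The genes with the lowest p for a higher fold change with leptin than with saline were Inpp5b (difference 0.41), Ankrd9 (0.43) and Amn (0.51), and for a lower one Mblac2 (−0.73), Sh2d4a (−0.41) and Zfp455 (−0.76).

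**Figure D5:**
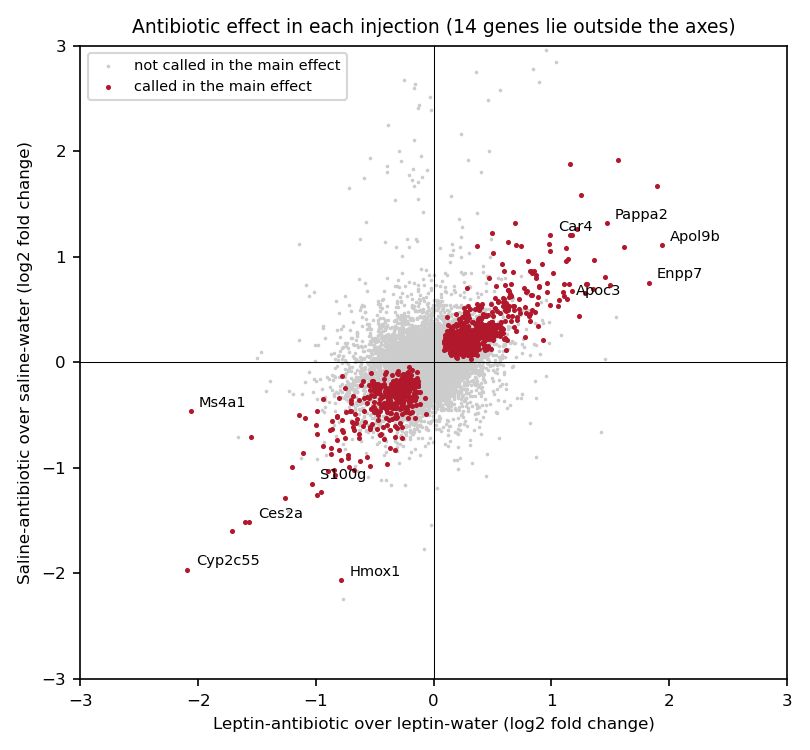
Log2 fold change of antibiotic over water in the leptin libraries (x axis) and in the saline libraries (y axis) for each gene, with genes called in the average in red and the others in grey; 14 genes lie outside the axes, which end at 3. Red points fall in the lower left and upper right of the plot, with Cyp2c55 and Ces2a near the diagonal and Hmox1 and Ms4a1 away from it.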

How the data were processed

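The authors deposited gene counts for mouse duodenum. Per the labels' protocols, libraries were stranded total RNA with ribosomal RNA removal, made from 150 ng of RNA and sequenced as pairs of 50 bases. FastQC, HISAT2, featureCounts, edgeR 3.42.0 and the build mm10 are named in the submitters' processing notes. The annotation, strand setting, treatment of reads with several matches and any filter, not given in the sources used here, could change the counts of near-copies. The deposited table held 16358 genes, of which 16340 were tested, and 0 of its sample columns went unmapped. No row was dropped for naming no gene, and Rn45s was kept in the library sizes except where stated.

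The counts of the 24 libraries were fitted in R 4.3.3 with edgeR 4.0.16 (filterByExpr over the 4 groups, TMM factors, quasi-likelihood F test) with drink and injection as terms, and p-values were adjusted by Benjamini and Hochberg over all genes at a threshold of 0.05. SE is the log2 fold change divided by the square root of F. Levels are TMM-scaled CPM, and list means use log2 CPM with a prior count of 2. Each arm was also fitted alone, and the difference between injections was an interaction term. The call procedure was tested on simulated data. Replicates are separate samples in the labels, which do not say whether each came from its own mouse, so p-values measure the spread between these samples. Of 60 pairs of replicates none were identical, and the lowest chi-square per degree of freedom was 19.7, so none was counted as 1 sample.

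The members and lists were chosen with earlier results of these data known. Named genes were, among calls with a mean of at least 1 log2 CPM and without predicted genes, up to 12 highest and 12 lowest by fold change and 6 more in each direction by p, then for each list up to 6 members that passed and 2 that did not, with a fixed set of genes, and 3 in each direction for the difference. The text describes 96 genes by this rule and not every one it gives, and some genes are not reported here. Alternatives were DESeq2 1.42.0, limma 3.58.1 voom with quality weights, other scaling factors, filters and terms, and left-out libraries. Gene positions follow GENCODE on GRCm38, the build named mm10, and promoter windows are from RefSeq on GRCm38.p6.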

Additional observations from a re-analysis of the deposited data

Results flagged for a closer look

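The 4 groups of 6 libraries were each examined for a library far from the others in the described genes, 384 groups of values in all, and 28 stood apart by Dixon's criterion. Chance marks about 1 in 20 groups.

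Saline-antibiotic 1 stood apart in 8 genes. Cyp3a11 was low there at 339 CPM, against 693 to 796 CPM in the other 5 libraries of its group. Cyp3a44 was low at 5.69 CPM, the others having 11.4 to 13.3 CPM. Ces2a was low at 67.2 CPM, the others having 117 to 152 CPM. Ces2b was low at 36.8 CPM, the others having 86.0 to 112 CPM. Cyp4b1 was low at 78.5 CPM, the others having 128 to 149 CPM. Naaladl1 was low at 53.0 CPM, the others having 78.0 to 93.0 CPM. Apoc3 was low at 104 CPM, the others having 172 to 207 CPM. Apoa4 was low at 2593 CPM, the others having 4572 to 5525 CPM.

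Saline-water 9 stood apart in 7 genes. Ces2b was low there at 36.1 CPM, against 134 to 268 CPM in the other 5 libraries of its group. Reg3g was high at 3097 CPM, the others having 37.0 to 177 CPM. Ptk6 was high at 36.9 CPM, the others having 3.39 to 4.99 CPM. Vdr was low at 528 CPM, the others having 802 to 926 CPM. Tlr1 was high at 10.7 CPM, the others having 6.74 to 7.96 CPM. Lct was low at 428 CPM, the others having 844 to 1187 CPM. Ccdc170 was low at 0.603 CPM, the others having 1.32 to 1.77 CPM.

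Leptin-antibiotic 3 stood apart in 3 genes. Lyz2 was high there at 73.4 CPM, against 41.7 to 46.7 CPM in the other 5 libraries of its group. Abat was high at 188 CPM, the others having 134 to 149 CPM. Larp1b was low at 82.0 CPM, the others having 97.5 to 106 CPM.

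Saline-water 13 stood apart in 2 genes. Hmox1 was high there at 25.0 CPM, against 3.13 to 4.56 CPM in the other 5 libraries of its group. Dgat1 was low at 304 CPM, the others having 394 to 449.8 CPM.

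In Leptin-antibiotic 1, Scd2 was low at 35.1 CPM, the others of its group having 62.7 to 84.2 CPM. In Leptin-antibiotic 2, Muc4 was low at 60.6 CPM, the others of its group having 69.9 to 75.4 CPM. In Leptin-antibiotic 4, Adgrf1 was low at 1.06 CPM, the others of its group having 1.70 to 2.15 CPM. In Leptin-antibiotic 5, Ndufs1 was low at 162 CPM, the others of its group having 174 to 176 CPM. In Leptin-water 10, S100g was high at 1464 CPM, the others of its group having 869.6 to 1036 CPM. In Saline-antibiotic 2, Naip1 was high at 96.2 CPM, the others of its group having 86.4 to 88.6 CPM. In Saline-antibiotic 3, Msmo1 was high at 78.4 CPM, the others of its group having 58.0 to 60.8 CPM. In Saline-antibiotic 6, Ndufa5 was high at 35.995 CPM, the others of its group having 24.9 to 28.2 CPM.

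Saline-antibiotic 1 is among the libraries high in pancreas genes, as is Leptin-antibiotic 3, and Saline-water 9 held the highest Reg3b, Reg3g and Ptk6 levels. What sets these libraries apart was not tested.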

How the results depend on the processing

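No paired analysis was possible because antibiotic libraries are numbered 1 to 6 and water libraries 8 to 14, so the drinks share no replicate number. Against 662 higher and 354 lower genes, DESeq2 gave 834 and 610, limma voom 1463 and 854, upper quartile factors 415 and 714, pancreas and smooth muscle terms 1246 and 700, and leaving out the libraries high in pancreas genes 1102 and 423. The saline libraries alone gave 0 and 0, and the leptin libraries alone 392 and 117. Within saline, DESeq2 gave 89 and 67, limma voom 13 and 3, and the 4-group fit, chosen after seeing the data, 19 and 13. Within leptin, DESeq2 gave 962 and 355, limma voom 745 and 300, and the 4-group fit 303 and 69. Leaving out 1 library gave 350 to 864 higher and 221 to 520 lower genes. Of the 91 called genes described, 80 kept their call wherever the 36 fits to the libraries of both injections gave an adjusted p. Among them, Reg3b and Reg3g had an adjusted p in only 11 of the 12 fits other than those leaving out 1 library. Of the called genes, 0 reversed in any setting. Vdr, which was not called, had −0.021 with upper quartile factors, −0.042 in saline libraries alone and −0.037 to 0.047 with 1 library left out. Calls of Fasn, Scd2, Adgre1 and Hmox1 were lost with pancreas and smooth muscle terms, and those of Ms4a1 and Lct with no injection term. The cause was not tested. Genes of few CPM, such as Ms4a1, Cd209a and Enpp7, rest on few reads, and 6 libraries a group limit what each injection alone can show.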

Other observations

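Gene families outside the lists were read after their values had been seen, so their counts are descriptions. Of 9 Nat8 genes, N-acetyltransferases that include close copies, 6 were higher and none lower, with a median log2 fold change of 0.373. Of 5 Akr1c genes, aldo-keto reductases of steroids and xenobiotics, 4 were higher (median 0.573). Of 8 Cyp2d genes 3 were higher (median 0.369), and of 12 Slc5a sodium cotransporters 5 (median 0.318). Of 7 Gstm genes 3 were lower, with a median of −0.0135, and of 6 Col4a genes, chains of basement membrane collagen, 2 were lower (median −0.243). Of 78 mitochondrial ribosomal proteins 7 were higher (8.97%) and none lower, with a median of 0.0942, against 0.19 for the respiratory chain list. Over all genes tested 4.05% were called higher and 2.17% lower.

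The 15 water libraries of set M were scaled together with those of set MT to see where their levels lay, without a test, since no antibiotic library is in set M. S100g had 347 to 616 CPM (median 462) in antibiotic libraries, against 602 to 1470 CPM (median 1010.0) in water libraries of set MT and 910.0 to 1400.0 CPM (median 1070.0) in those of set M. No antibiotic library reached the set M range. Cyp3a11 had 346 to 1060.0 CPM (median 785) in antibiotic libraries, against 631 to 2290.0 CPM (median 1620.0) in set MT water and 535 to 1660.0 CPM (median 1000.0) in set M water. Apoc3 had 106 to 330.0 CPM (median 205) in antibiotic libraries, against 73.4 to 157 CPM (median 112) in set MT water and 110.0 to 221 CPM (median 157) in set M water. For these 2 genes the set M water libraries lay between the other groups by their medians and overlapped both. The set M median also lay between those of the other groups for Ces2a, Gstm1, Cyp2c55, Reg3b and Reg3g. For Trpv6 and Ifit1, as for S100g, it lay further from the antibiotic median than that of set MT water. Reg3b reached 3110.0 CPM in 1 set M water library or more, so high values in single water libraries were not limited to Saline-water 9.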
